A study of Mus musculus with 30 samples.

Results

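The 9 genes described here encode proteins of the extracellular matrix and of the plasminogen system, and they were 9 of the 45317 genes counted. The list was fixed by name, and *Vcan*, *Ltbp1* and *Prg4* were chosen for their difference between the blood monocyte populations, so their levels in blood, and in brain against blood, are described with no test. The other 6, *Fn1*, *Thbs1*, *Tgfbi*, *Plau*, *Plaur* and *F13a1*, were tested in every comparison. RNA was sequenced from 8 populations sorted from 4 mice, numbered 22, 23, 24 and 26, each carrying a brain tumor grown in the striatum from GL261.BpalmGFP, 1 mouse glioma cell line with a membrane-anchored GFP. All mice were C57BL6.CCR2RFP/WT, 12 to 18 weeks old and heterozygous for a red fluorescent protein knocked into *Ccr2*, so blood too came from tumor-bearing, *Ccr2* heterozygous animals and no group without a tumor was analysed here. Blood monocytes were sorted as CD45 and CD115 high and CD11c low, and were split into Ly6Chigh and Ly6Clow cells of mice 22, 23 and 24. Cells of the tumor-bearing brain were sorted as CD11b and CD45 high, and were split into Ly6Chigh glioma monocytes of mice 22, 24 and 26 and into CCR2high and CCR2low macrophages of all 4 mice. Each brain population was sorted again into GFPpos cells, which had taken up tumor-derived GFP, and GFPneg cells.

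The extracellular matrix is the mesh of proteins and sugars around cells. Versican (*Vcan*) is a large proteoglycan that binds hyaluronan, fibronectin (*Fn1*) is a glycoprotein that integrins grip, and factor XIII subunit A (*F13a1*) is a transglutaminase that ties fibrin and fibronectin chains together. *Ltbp1* encodes a protein that anchors latent TGF-beta in the matrix, thrombospondin 1 (*Thbs1*) can release TGF-beta from its latent form, and *Tgfbi* encodes an adhesion protein named for its induction by TGF-beta. *Prg4* encodes lubricin, the lubricant of joints and of the serous cavities. Urokinase (*Plau*) cleaves plasminogen into plasmin, which dissolves fibrin and matrix, and the urokinase receptor (*Plaur*) holds it at the cell surface. Classical monocytes are a known source of factor XIII subunit A, versican and fibronectin.

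Each of the 28 replicates, 1 population of 1 mouse, held 1553616 to 5689644 gene counts (median 2140230), and levels are given as CPM, the count scaled to a common library size. Monocyte and macrophage markers were present in every population, with *Csf1r* at 1945 to 4456 CPM. The summed level of 8 microglia markers had a median of 1983, 2708 and 4541 CPM in GFPneg glioma monocytes, CCR2high and CCR2low macrophages. In blood replicates it was 145 to 285 CPM. Its part in the differences of any gene between brain and blood, or between glioma monocytes and macrophages, was not tested. Mouse 26 stood apart from the others and had no blood libraries. Its 6 replicates held *Xist*, the RNA of the inactive X chromosome, at 41.3 to 91.2 CPM against at most 0.463 CPM in the other mice, and the Y-linked *Ddx3y* at 0 against 43.1 to 104 CPM. In the same 6 replicates the summed level of 8 fibroblast and pericyte markers was 148 to 604 CPM, against 0 to 95.3 CPM in the glioma replicates of the other mice. Sex, mouse and any event in that animal cannot be told apart, so the calls of the members in glioma are given with and without mouse 26, and pathway genes as counts without it, with values for those whose level rested on it most. Ly6Clow monocytes of mouse 23 had 2 libraries, of which the first held 3460 genes with at least 5 reads, under the 6000 that the quality rule asks for, and only the second was used. That second library held 6475 such genes and carried 13.3% spike-in reads, the largest share of any replicate. Like the second library of GFPpos glioma monocytes of mouse 22, it was deposited in a set of counts apart from all other libraries. Ly6Clow monocytes of mouse 23 were the one replicate taken wholly from that set.

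**Figure D1:**
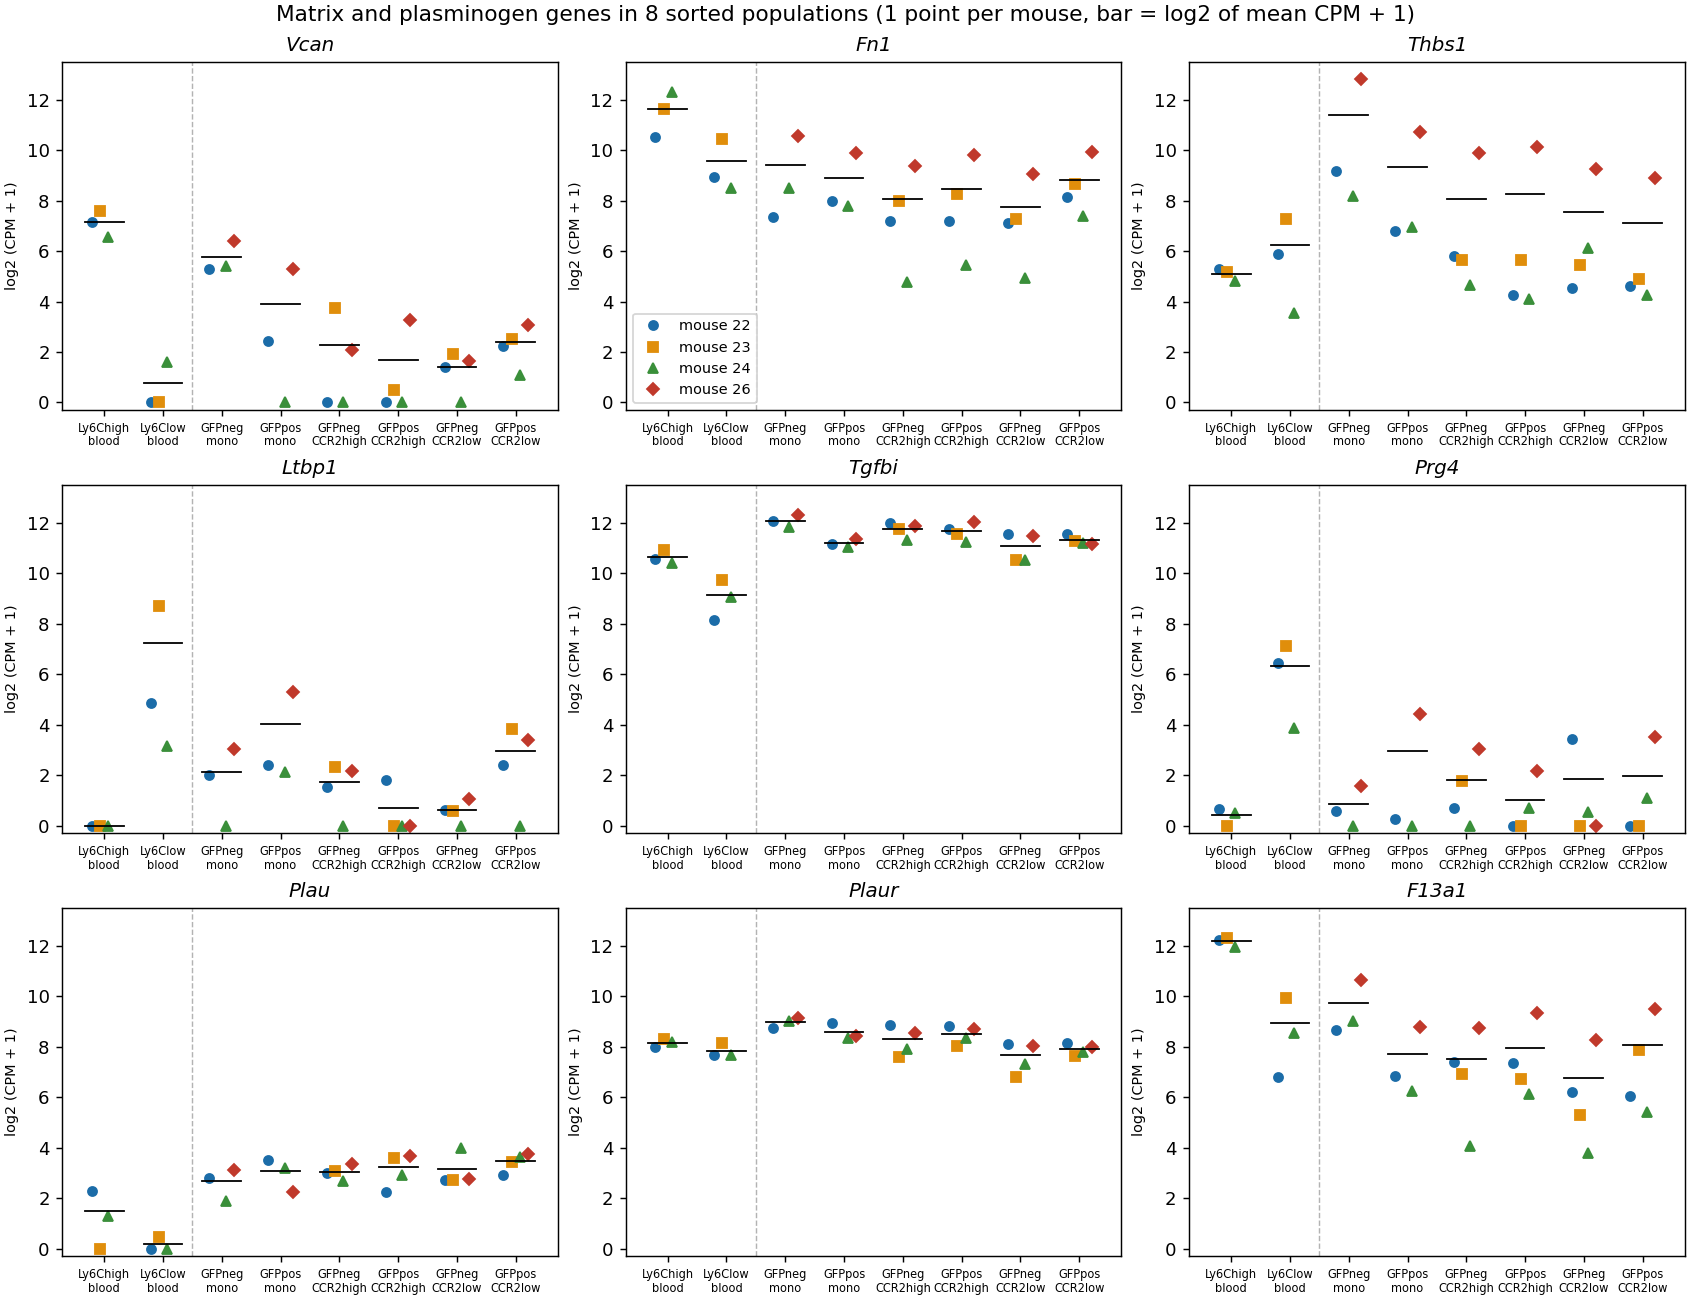
Level of each gene, as log2 (CPM + 1), in the 8 populations, with 1 point per mouse and a bar at the log2 of the mean CPM + 1, and with blood left of the dashed line. *Vcan*, *Fn1* and *F13a1* were highest in Ly6Chigh blood monocytes, *Ltbp1* and *Prg4* in Ly6Clow blood monocytes, and *Thbs1* and *Tgfbi* in GFPneg glioma monocytes.

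Per kilobase of exon, the level of *F13a1* in Ly6Chigh blood monocytes was 688 ± 78.6 CPM per kb (SD, n = 3), that of *Tgfbi* was 425 ± 76.0, that of *Fn1* was 275 ± 153 and that of *Plaur* was 109.6 ± 12.3. The other members followed at a distance, with *Vcan* at 9.79 ± 3.39 CPM per kb, *Thbs1* at 5.53 ± 0.918 and *Plau*, *Prg4* and *Ltbp1* under 1. GFPneg glioma monocytes had another order. There *Tgfbi* led at 1157 ± 185 CPM per kb, *Thbs1* followed at 444 ± 644, *Plaur* at 192 ± 25.9, *F13a1* at 126 ± 100.4 and *Fn1* at 58.4 ± 62.4. The SD of *Thbs1* exceeded its mean, and its values by mouse are given with the glioma comparisons.

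*Vcan* (chr13:89655312-89742509, minus strand, GRCm38) was at 139.9, 192 and 93.4 CPM in Ly6Chigh blood monocytes of mice 22, 23 and 24. In Ly6Clow monocytes of the same mice it was at 0, 0 and 2.07 CPM. The blood populations did not overlap, a difference on which the gene was chosen. GFPneg glioma monocytes held 38.6, 41.2 and 82.6 CPM in mice 22, 24 and 26, between the blood populations and without overlap with either. GFPpos glioma monocytes held 4.49, 0 and 37.9 CPM, and no macrophage replicate was over 12.4 CPM. The order of means was thus Ly6Chigh blood, GFPneg glioma monocytes, GFPpos glioma monocytes and then the macrophages and Ly6Clow blood monocytes, whose neighbours in that order all overlapped.

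*Ltbp1* (chr17:75005568-75392512, plus strand) and *Prg4* (chr1:150449412-150466165, minus strand) had the opposite blood pattern, which is how they were chosen. *Ltbp1* was at 0 in all Ly6Chigh replicates and at 27.8, 413 and 7.99 CPM in Ly6Clow monocytes of mice 22, 23 and 24. Against the level of 3 counts in each Ly6Chigh library its mean was at least 110.2-fold higher in Ly6Clow monocytes, a bound that fell to 13.2-fold without mouse 23, and 3 counts stand for 0.627 to 1.76 CPM there. *Prg4* was at 0.562, 0 and 0.418 CPM in Ly6Chigh cells and at 86.8, 139.6 and 13.6 CPM in Ly6Clow cells, at least 59.0-fold higher, with a bound of 37.0-fold without mouse 23. In both genes mouse 23 was highest and mouse 24 lowest among the Ly6Clow replicates. Across the brain *Ltbp1* stayed at 0 to 37.9 CPM and *Prg4* at 0 to 20.3 CPM, and for each gene the highest brain replicate was GFPpos glioma monocytes of mouse 26. Counting floors and bounds cover counting error only.

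The 2 libraries of Ly6Clow monocytes of mouse 23 differed in these genes. *Ltbp1* had 0 reads in the first library, which held 1091905 gene counts, and 1070 in the second, which held 2690612. *Prg4* had 6 and 362 reads in the same libraries. On the CPM scale of each library's own gene reads *Ltbp1* was at 0 and 398, *F13a1* at 178 and 955, and *Plaur* at 332 and 275. The span of *Ltbp1* between libraries of 1 sample was thus near its span between mice, while *Plaur* differed little.

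Markers of other cell types moved with the Ly6Clow gate. The summed level of 14 genes known from macrophages of the serous cavities was 922, 711 and 196 CPM in Ly6Clow monocytes of mice 22, 23 and 24, with 13 of the 14 detected, against 155, 132 and 107 CPM in Ly6Chigh cells, with 9 detected. Among them the lipoxygenase gene *Alox15* was at 392.5, 388 and 52.7 CPM in Ly6Clow and at 0, 6.44 and 0 CPM in Ly6Chigh cells, and the chemokine gene *Cxcl13* was at 76.0, 56.7 and 5.33 CPM against 0 in all 3. *F5* of the same list went the other way, at 0, 28.9 and 2.66 CPM in Ly6Clow and at 26.4, 55.65 and 64.0 CPM in Ly6Chigh cells. *Saa3*, *Lrg1*, *Tgfb2*, *Rarb* and *Vsig4* were not higher in Ly6Clow cells of every mouse. *Gata6*, which encodes the defining transcription factor of those macrophages, was at 0 in every blood replicate. Mouse 24 was lowest for both *Prg4* and this list, while mouse 23 was highest for *Prg4* and mouse 22 for the list. A list of 8 T and NK cell markers summed to 914 to 1504 CPM in Ly6Clow and 19.3 to 175 CPM in Ly6Chigh replicates. The part of these cells in the levels of *Ltbp1* and *Prg4* was not tested, and in bulk samples fewer cells of a type and less RNA per cell cannot be told apart. Platelets also carry *Ltbp1*, *Thbs1* and *F13a1* products, and the 10 platelet markers summed to 165.6, 0 and 18.1 CPM in Ly6Clow monocytes of mice 22, 23 and 24, against 9.55, 7.61 and 3.76 CPM in Ly6Chigh cells. They were thus higher in Ly6Clow cells of mice 22 and 24, with *Pf4* at 107.6 CPM in mouse 22, and at 0 in mouse 23, where *Ltbp1* was highest. Their part in the *Ltbp1* levels was not tested.

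**Figure D2:**
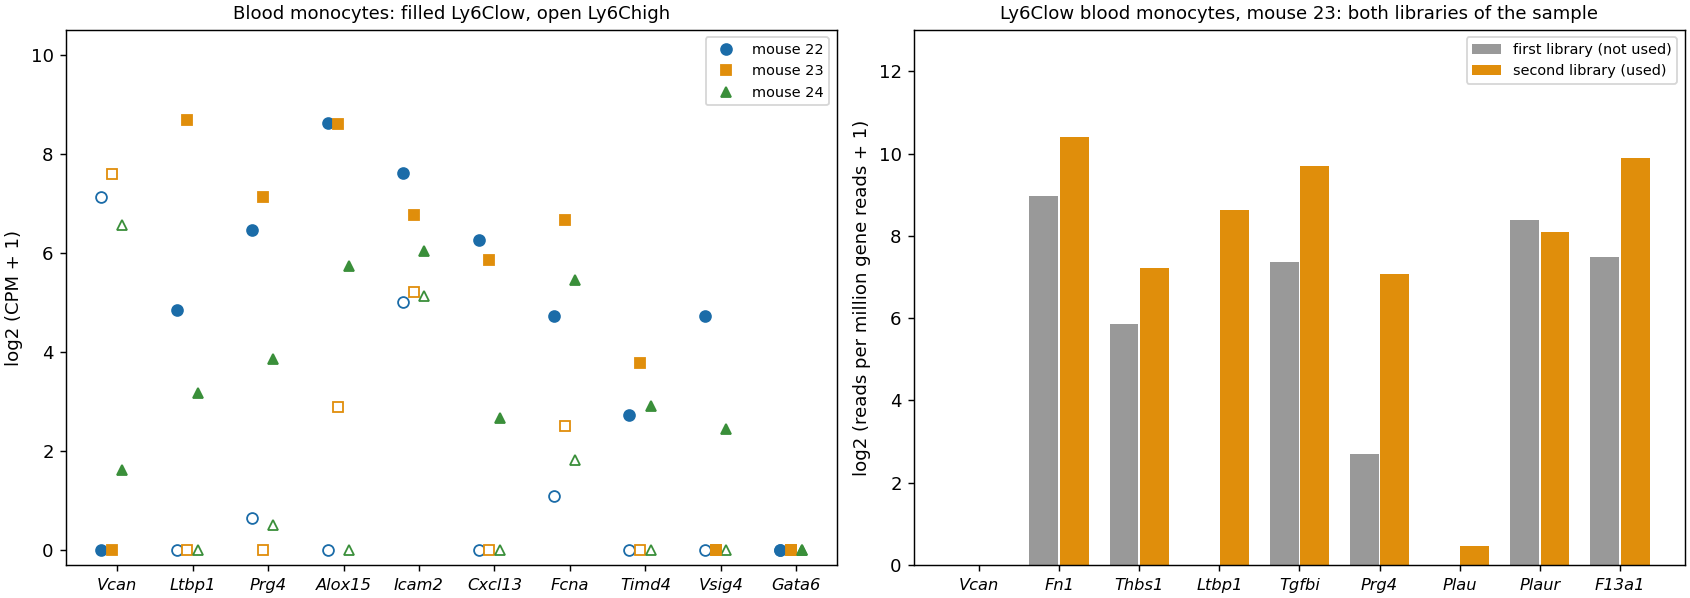
Left, log2 (CPM + 1) of *Vcan*, *Ltbp1*, *Prg4* and 7 of the 14 serous cavity macrophage markers in Ly6Clow (filled) and Ly6Chigh (open) blood monocytes of 3 mice, where *Gata6* was at 0 throughout and filled points lie over the open ones. Of those not drawn, *F5* was lower in Ly6Clow cells of all 3 mice. *Saa3*, *Lrg1*, *Tgfb2* and *Rarb*, also not drawn, were not higher in Ly6Clow cells of every mouse. The drawn *Vsig4* was at 0 in both gates of mouse 23. Right, log2 (CPM + 1, on each library's own gene reads) of the 9 genes in both libraries of Ly6Clow monocytes of mouse 23, where *Ltbp1* had no reads in the first library.

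*F13a1* (chr13:36867178-37050244, minus strand) was the member with the highest level in Ly6Chigh blood monocytes, at 4831, 5043 and 4038 CPM in mice 22, 23 and 24. Ly6Clow monocytes held 111, 991 and 376 CPM, and GFPneg glioma monocytes 401, 514 and 1625 CPM in mice 22, 24 and 26. In macrophages it was lower again, at 168, 119, 15.7 and 429 CPM in GFPneg CCR2high cells and at 73.2, 38.5, 12.95 and 309 CPM in GFPneg CCR2low cells of mice 22, 23, 24 and 26. No replicate of another population reached the lowest Ly6Chigh value. Of the 2 start windows of *F13a1* the one with motif matches is shown, because the gene had this contrast between blood and brain. The other, chr13:37050195-37050494 at the annotated 5′ end of the gene, held none of the 6 motifs searched. The 300 bases, from 250 before to 50 after the RefSeq start (GRCm38.p6, chr13:37049164-37049463, minus strand), hold the letters GGAAGT, which ETS family factors such as PU.1 can bind, 2 times on the strand shown (in capitals), at -35 and 16 from the start. On either strand these letters were found in 23.8% of 32851 promoter windows of that length.
F13a1: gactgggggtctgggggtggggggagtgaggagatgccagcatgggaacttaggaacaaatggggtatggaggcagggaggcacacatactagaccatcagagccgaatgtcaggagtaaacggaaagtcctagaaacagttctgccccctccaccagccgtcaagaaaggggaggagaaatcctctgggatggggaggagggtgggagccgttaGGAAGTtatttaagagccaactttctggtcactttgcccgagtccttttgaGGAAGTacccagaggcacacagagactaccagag

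Fibronectin followed a like order. *Fn1* (chr1:71585520-71653200, minus strand) was at 1466, 3158 and 5032 CPM in Ly6Chigh blood monocytes and at 497, 1398 and 366 CPM in Ly6Clow monocytes of mice 22, 23 and 24, and at 164, 366 and 1516 CPM in GFPneg glioma monocytes of mice 22, 24 and 26. GFPneg CCR2high macrophages held 144, 252, 26.4 and 661 CPM and GFPneg CCR2low macrophages 137, 155, 29.6 and 531 CPM of mice 22, 23, 24 and 26. Mouse 24 was thus highest in Ly6Chigh blood and lowest in the GFPneg macrophages, and mouse 26 was highest in every brain population. *Fn1* and *F13a1* were also each other's nearest member, with a Pearson r of log2 CPM of 0.90 over the 28 replicates and 0.86 over the 22 brain replicates, which share animals and tumor.

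Between the blood populations, 1 of the 6 members tested was called at an adjusted p under 0.05 (edgeR's quasi-likelihood test, Benjamini-Hochberg adjustment over 11566 genes), where 5.61% of all genes were called. That member was *Tgfbi* (chr13:56609523-56639562, plus strand), at 1506, 1924 and 1375 CPM in Ly6Chigh and 280, 856 and 538 CPM in Ly6Clow monocytes of mice 22, 23 and 24, a log2 fold change of 1.52 (SE 0.32, adjusted p = 0.00454). Without mouse 22 it was 1.37 (adjusted p = 0.0729). *F13a1* was higher in Ly6Chigh cells in 3 of 3 mice, by 3.23 on the log2 scale (SE 1.19, adjusted p = 0.105). *Fn1* was higher in 3 of 3 mice by 2.10 (SE 1.07, adjusted p = 0.251). Without mouse 26, which has no blood libraries but enters the shared estimate of spread, *F13a1* passed at 3.24 (adjusted p = 0.0247) and *Fn1* did not (2.10, adjusted p = 0.122). With mouse as a block both passed, *F13a1* at 3.37 (adjusted p = 0.00238) and *Fn1* at 2.52 (adjusted p = 0.00954), so that 3 members were called where 7.97% of all genes were. Ly6Clow monocytes of mouse 23, with the highest *F13a1* and *Fn1* of that gate, also had its highest levels of the Ly6Chigh markers *Ly6c2* (273 CPM against 27.8 and 68.1) and *Ccr2* (916 CPM against 221 and 547), whose part was not tested. *Thbs1*, *Plaur* and *Plau* were not called, *Plau* with a log2 fold change of 3.42 (SE 1.09, adjusted p = 0.0616) at 3.93, 0 and 1.46 CPM against 0, 0.386 and 0.

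The next comparison set the GFPneg glioma populations against Ly6Chigh blood monocytes, the population known to enter inflamed tissue. In glioma monocytes 2 of 6 members were called, where 13.8% of all genes were, *Tgfbi* and *Thbs1*, both higher in glioma. *Tgfbi* was at 4363, 3668 and 5060 CPM in GFPneg glioma monocytes of mice 22, 24 and 26, without overlap with blood, a log2 fold change of 1.45 (SE 0.32, adjusted p = 0.00219), and of 1.33 without mouse 26 (adjusted p = 0.0181). *Thbs1* (chr2:118111876-118127133, plus strand) was at 38.2, 35.1 and 27.4 CPM in Ly6Chigh blood and at 586, 290 and 7208 CPM in GFPneg glioma monocytes. Every glioma replicate was above every blood replicate, by 6.33 on the log2 scale (SE 2.13, adjusted p = 0.0486), and without mouse 26 the difference was 3.71 (SE 0.72, adjusted p = 0.00161). With mouse as a block it was 3.74 (adjusted p = 6.94e-05). With GFPneg monocytes of mouse 26 alone left out it was 3.67 (adjusted p = 0.254), and with Ly6Chigh monocytes of mouse 22, 23 or 24 or GFPneg monocytes of mouse 22 left out it was 6.36, 6.29, 6.20 or 6.74 (adjusted p = 0.139, 0.154, 0.167 or 0.0531). Without the whole of mouse 22, 23 or 24 it was 6.88, 6.2996 or 6.69 (adjusted p = 0.185, 0.162 or 0.128).

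With the block, *F13a1* and *Fn1* were also called in glioma monocytes, lower than in Ly6Chigh blood, and 4 of 6 members were called where 16.1% of all genes were. *F13a1* differed by -2.45 on the log2 scale (SE 1.15, adjusted p = 0.179) without the block, by -3.28 with it (adjusted p = 0.000963) and by -3.34 without mouse 26 (adjusted p = 0.0298). *Fn1* differed by -2.24 (SE 1.08, adjusted p = 0.194), by -3.39 with the block (adjusted p = 0.000289) and by -3.60 without mouse 26 (adjusted p = 0.0183). The value of mouse 26, 1516 CPM, was the one *Fn1* value of glioma monocytes that reached the blood range.

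**Figure D3:**
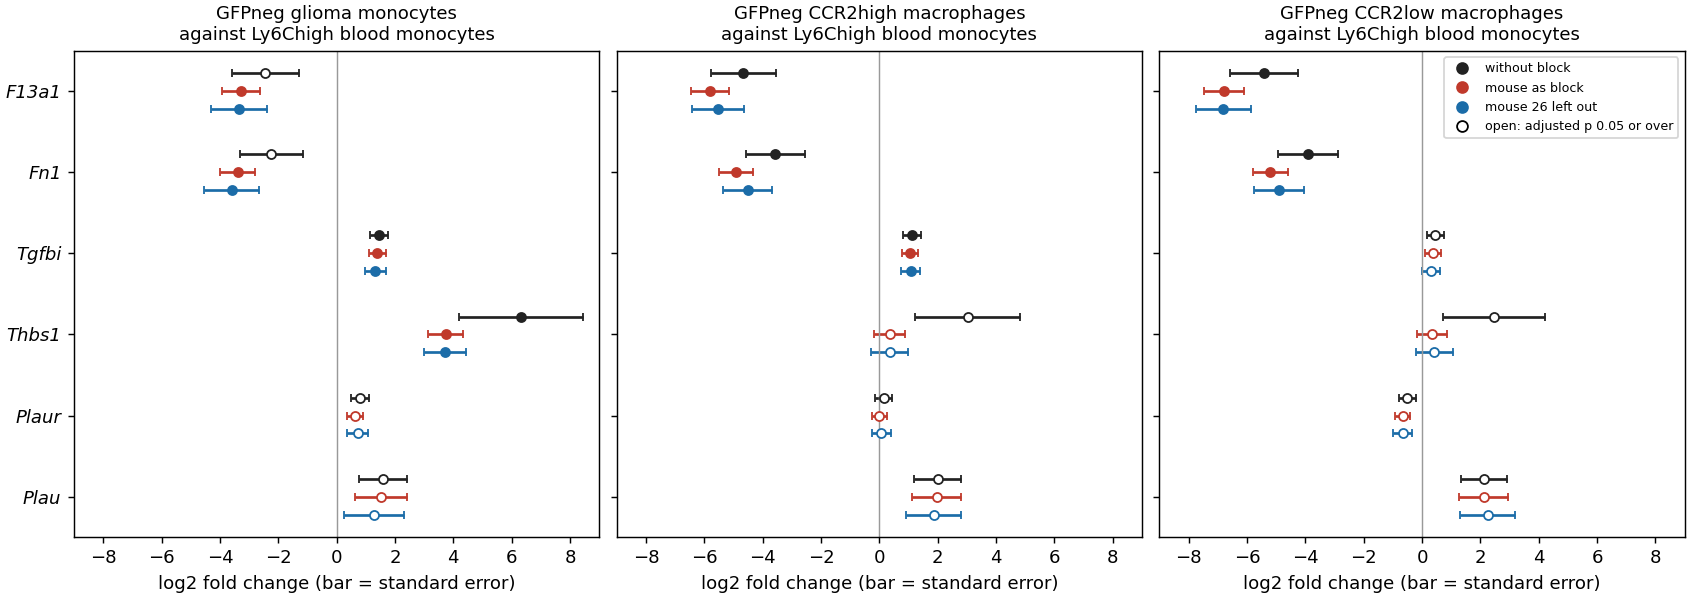
Log2 fold changes of the 6 tested members in 3 GFPneg glioma populations against Ly6Chigh blood monocytes, with standard errors, in the fit without a block, with mouse as a block, and with mouse 26 left out, where open points mark an adjusted p of 0.05 or over. *F13a1* and *Fn1* lay on the lower side in every panel, and the *Thbs1* value of the macrophages moved from 3.02 and 2.48 to 0.36 and 0.41 without mouse 26.

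In GFPneg CCR2high macrophages 3 of 6 members were called against Ly6Chigh blood monocytes, where 17.8% of all genes were. *F13a1* fell by 4.66 on the log2 scale (SE 1.12, adjusted p = 0.00401), *Fn1* fell by 3.57 (SE 1.01, adjusted p = 0.0141) and *Tgfbi*, at 4039, 3487, 2559 and 3796 CPM in mice 22, 23, 24 and 26, rose by 1.12 (SE 0.30, adjusted p = 0.00933). In CCR2low macrophages 2 of 6 were called, where 20.2% of all genes were, *F13a1* at -5.42 (SE 1.16, adjusted p = 0.00125) and *Fn1* at -3.92 (SE 1.03, adjusted p = 0.00731). Both genes thus had their largest fall from Ly6Chigh blood in the CCR2low cells by point estimate. Without mouse 26 the difference of *F13a1* was -5.52 in CCR2high (adjusted p = 0.000188) and -6.81 in CCR2low cells (adjusted p = 3.48e-05). That of *Fn1* was -4.51 (adjusted p = 0.000774) and -4.90 (adjusted p = 0.000367), and that of *Tgfbi* in CCR2high cells was 1.07 (adjusted p = 0.029). *Thbs1* was not called in either class, at 3.02 (SE 1.79, adjusted p = 0.278) and 2.48 (SE 1.75, adjusted p = 0.37), and without mouse 26 the values were 0.36 (SE 0.64) and 0.41 (SE 0.64). Calls of the macrophages were lost without some mice, *F13a1* in CCR2high cells without mouse 22 (-4.60, adjusted p = 0.06), *Fn1* in CCR2low cells without mouse 22 or 23 (-4.14 or -3.90, adjusted p = 0.06 or 0.0758) and *Fn1* in CCR2high cells without mouse 22, 23 or 24 (-3.72, -3.65 or -2.76, adjusted p = 0.0944, 0.0965 or 0.0772) or Ly6Chigh blood of mouse 24 (-3.09, adjusted p = 0.0644). *Tgfbi* in CCR2high cells was lost without mouse 22 or 24 (1.001 or 1.10, adjusted p = 0.0666 or 0.0676) or their Ly6Chigh blood (1.005 or 1.02, adjusted p = 0.0517 or 0.0614). The macrophage comparisons and that of the glioma monocytes share the 3 Ly6Chigh blood replicates.

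Among glioma populations *Thbs1* separated monocytes from macrophages within each mouse. In mice 22 and 24 it was at 586 and 290 CPM in GFPneg monocytes, at 55.5 and 23.997 CPM in GFPneg CCR2high macrophages and at 22.02 and 68.5 CPM in GFPneg CCR2low macrophages. In mouse 26 the same populations held 7208, 955 and 613 CPM. Monocytes were higher than either macrophage class in 3 of 3 mice, in the GFPneg and in the GFPpos cells. Across mice the populations overlapped, since macrophages of mouse 26 were above monocytes of mice 22 and 24, and without a block the difference did not pass in the GFPneg cells (log2 fold change 3.31, SE 1.64, adjusted p = 0.952 against CCR2high, and 3.86, SE 1.68, adjusted p = 0.482 against CCR2low). With mouse as a block it was 3.39 against each class (adjusted p = 0.000733 and 0.00036). Without mouse 26 it was 3.35 against CCR2high (adjusted p = 0.0709) and 3.30 against CCR2low macrophages (adjusted p = 0.0257).

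Mouse 26 set the spread of 3 members in the brain. Its *Thbs1* ranged from 476 to 7208 CPM over 6 populations, against 16.3 to 586 CPM in the other mice, its *Fn1* from 531 to 1516 CPM against 26.4 to 409 CPM, and its *F13a1* from 309 to 1625 CPM against 12.95 to 514 CPM. Within each of the 6 populations it was highest for *Thbs1*, *Fn1* and *F13a1*. The fibroblast and pericyte list, whose cells can express *Thbs1* and *Fn1*, was detected in 8 of 8 genes in every brain population. In all marker lists a gene counts as detected when read in at least 1 replicate. In GFPneg monocytes *Col1a1*, *Col1a2* and *Pdgfrb* were at 0 in mice 22 and 24. The list summed to 148 CPM in GFPneg monocytes of mouse 26, the lowest of the 6 replicates of that mouse, where *Thbs1* was highest. *Pf4*, a chemokine gene of platelets and of some macrophages, was at 94.8 to 243 CPM in mouse 26 and 6.96 to 124 CPM in the others, and the platelet chemokine gene *Ppbp* was at 3.2 to 42.6 CPM in mouse 26 and 0 to 1.24 CPM in the others, highest in GFPneg monocytes of mouse 26. The 10 platelet markers, of which 6 to 8 were detected in a brain population, summed to 143 to 255 CPM in mouse 26 and 16.1 to 129 CPM in the others. Of the platelet receptor genes, *Gp1bb* was at 0 in all GFPneg populations and *Gp1ba* in 5 of the 6 brain populations. Other genes of the list were read at low levels. In GFPneg monocytes of mice 22, 24 and 26 *Gp9* was at 0, 2.14 and 2.58 CPM and *Itga2b* at 2.01, 4.82 and 1.29 CPM. *Treml1* and *Tubb1* were at 0.69 and 0.23 CPM in GFPneg CCR2high macrophages of mouse 26. The part of other cells in the values of mouse 26 was not tested.

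**Figure D4:**
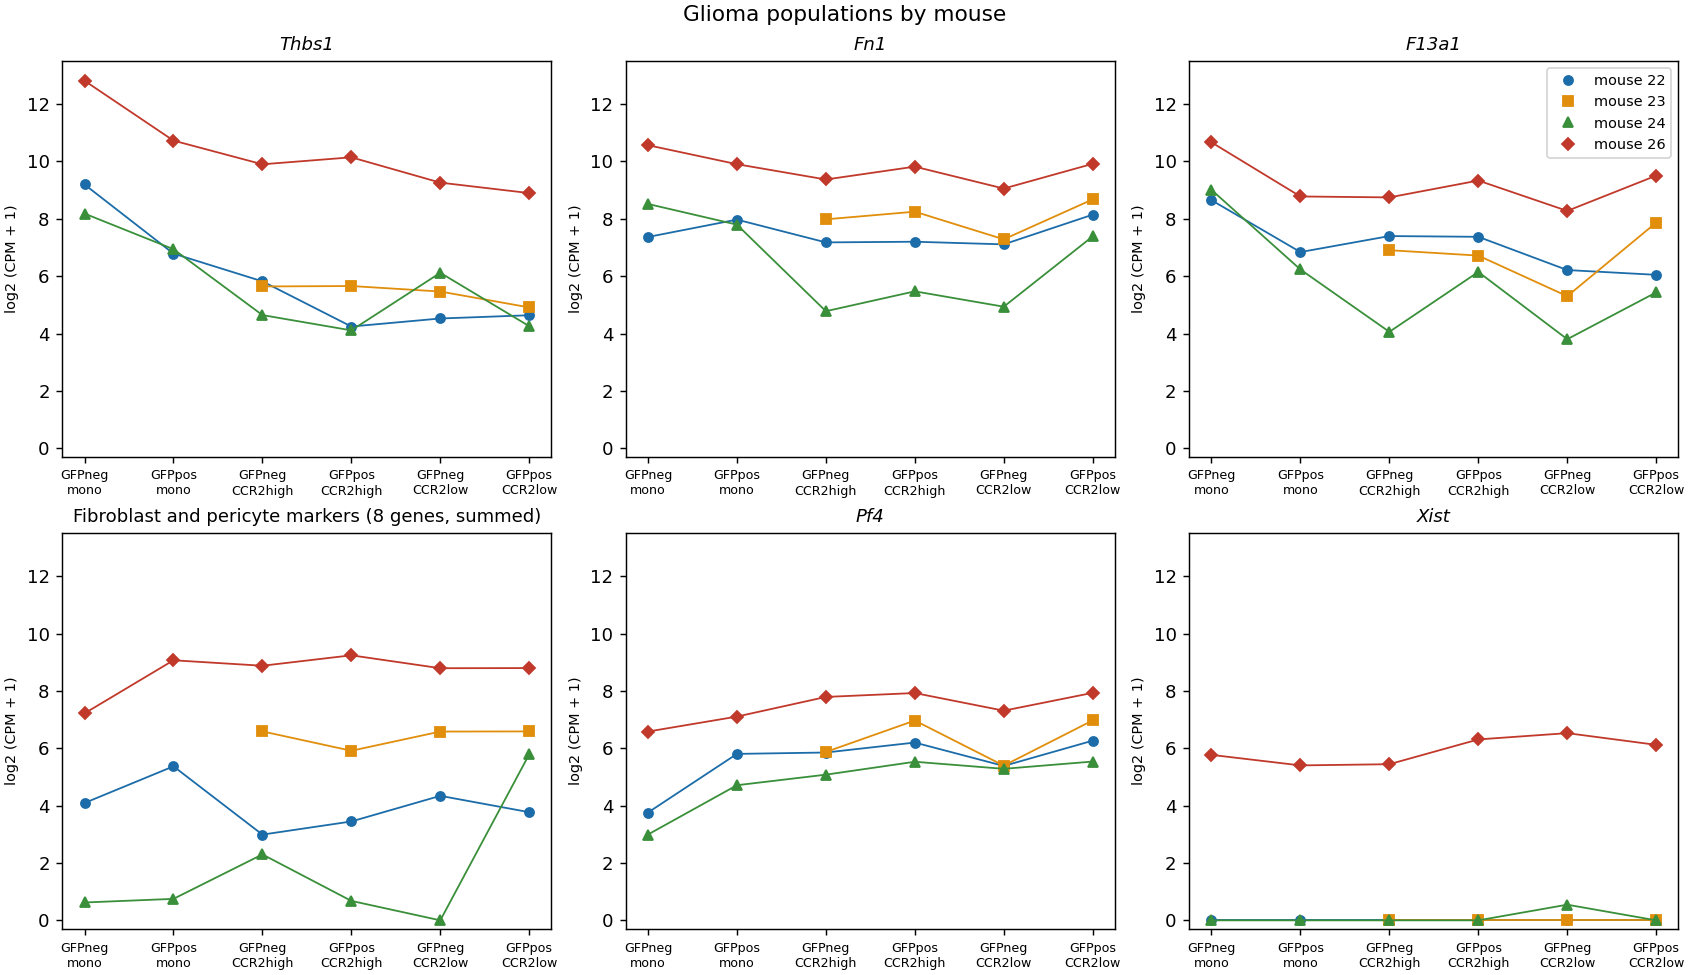
Log2 (CPM + 1) of *Thbs1*, *Fn1*, *F13a1*, summed fibroblast and pericyte markers, *Pf4* and *Xist* in the 6 glioma populations, with a line per mouse that joins populations and has no order in time. Mouse 26 lay above the others in all 6 panels, and *Thbs1* was highest in GFPneg monocytes of each mouse that had them.

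No member was called without the block between GFPneg monocytes and CCR2high macrophages by edgeR's quasi-likelihood test, where 0.182% of all genes were. DESeq2 called 0 members as well, and 103 of the 8895 genes it tested. At an unadjusted p under 0.05 in edgeR's test there were 3 members, beside 622 of all 11566 genes. They were *Vcan*, *Plaur* and *F13a1*, each higher in monocytes. With the block 2 were called, *Thbs1* and *F13a1* (log2 fold change 2.53, adjusted p = 0.0392), where 0.83% of all genes were. Between GFPneg monocytes and CCR2low macrophages 1 of 9 members was called without the block, where 1.21% of all genes were. It was *Plaur* (chr7:24462484-24475968, plus strand), at 430, 514 and 565 CPM in monocytes of mice 22, 24 and 26 and 273, 112, 160 and 265 CPM in CCR2low macrophages of mice 22, 23, 24 and 26. The populations did not overlap, with a log2 fold change of 1.31 (SE 0.29, adjusted p = 0.0212), and the call was lost without mouse 22, 24 or 26 (1.57, 1.20 or 1.38, adjusted p = 0.0806, 0.499 or 0.0935). It was also lost without the monocytes of mouse 24 or 26 (1.29 or 1.23, adjusted p = 0.0882 or 0.0652) or the CCR2low macrophages of mouse 23 or 24 (1.11 or 1.19, adjusted p = 0.0947 or 0.105).

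With mouse as a block 5 members were higher in GFPneg monocytes than in CCR2low macrophages, where 2.46% of all genes were called. They were *Plaur*, *Thbs1*, *F13a1* (log2 fold change 3.51, adjusted p = 0.0013), *Tgfbi* (1.03, adjusted p = 0.0356) and *Vcan* (5.50, adjusted p = 0.0113). *Vcan* had not passed without the block (4.94, SE 1.35, adjusted p = 0.0727). Each of these 5 was higher in monocytes in 3 of 3 mice. Without mouse 26 and without the block *Vcan* was at 4.59 (adjusted p = 0.16), *F13a1* at 3.47 (adjusted p = 0.0672) and *Tgfbi* at 1.02 (adjusted p = 0.298). Between CCR2high and CCR2low macrophages 0 of 9 were called, with 0% of all genes, in the GFPneg and in the GFPpos cells. DESeq2 called 0 members in both, and 8 and 0 of the 22271 genes it tested. In edgeR's test 2 members in each had an unadjusted p under 0.05, beside 276 and 171 of all 11566 genes. They were *Tgfbi* and *Plaur* in the GFPneg cells and *Ltbp1* and *Plaur* in the GFPpos cells. *Plaur* and *Tgfbi* were higher in CCR2high than in CCR2low macrophages in 4 of 4 mice in both sorts.

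The *Plaur* start window is shown because *Plaur* was the one member called between glioma populations without a block in the fit of all 8 populations. In other fits without a block *Vcan* also passed between GFPneg monocytes and CCR2low macrophages with the compared populations alone (4.90, adjusted p = 0.00532), and *Tgfbi* with the brain populations alone (0.996, adjusted p = 0.0208). Of the 300 bases (RefSeq, GRCm38.p6, chr7:24462233-24462532, plus strand), the capitals mark TGANTCA at -69 from the start, the AP-1 consensus, which reads alike on both strands, and on the other strand TTGCNNAA at -59, a pattern that C/EBP factors can bind. The first was found on either strand in 7.81% and the second in 10.8% of the 32851 windows. A match is a description of letters. The letters AGATAA of GATA factors were also searched, as were the variant TGATAA, the ETS letters GGAAGT and the SMAD letters CAGACA, and none of these was in this window. Windows were found for *Vcan*, *Ltbp1*, *Tgfbi*, *Plaur* and *F13a1*.
Plaur: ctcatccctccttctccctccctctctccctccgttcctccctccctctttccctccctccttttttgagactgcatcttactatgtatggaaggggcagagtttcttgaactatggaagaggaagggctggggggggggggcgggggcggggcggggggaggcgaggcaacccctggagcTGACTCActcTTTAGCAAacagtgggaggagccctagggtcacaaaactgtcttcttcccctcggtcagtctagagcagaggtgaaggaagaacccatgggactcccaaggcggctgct

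The members of the urokinase pair differed in level per kilobase, with *Plaur* at 109.6 and *Plau* at 0.760 CPM per kb in Ly6Chigh blood. *Plaur* was between 112 and 565 CPM in every replicate, and the neighbours in its order of population means all overlapped. *Plau* (chr14:20836660-20843385, plus strand) was between 2.68 and 14.8 CPM in brain replicates, between 0 and 3.93 CPM in Ly6Chigh blood and at most 0.386 CPM in Ly6Clow blood. Against Ly6Chigh blood its log2 fold change was 1.59 (SE 0.83, adjusted p = 0.244) in GFPneg glioma monocytes, 2.00 (SE 0.79, adjusted p = 0.0844) in CCR2high and 2.13 (SE 0.80, adjusted p = 0.0606) in CCR2low macrophages, none past the threshold by edgeR's quasi-likelihood test. DESeq2 called both macrophage classes, at 2.10 (adjusted p = 0.0116) and 2.24 (adjusted p = 0.00632). Its macrophage replicates did not overlap with Ly6Chigh blood. The Ly6Chigh libraries held 0 to 7 *Plau* reads each.

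The sort by GFP compared cells that had taken up tumor membrane with cells that had not. In glioma monocytes, CCR2high and CCR2low macrophages 0 of 9 members were called by edgeR's quasi-likelihood test, with 0% of all genes in each. DESeq2 called 0 members in each, and 19 of 5872, 1 of 22271 and 3 of 22271 genes it tested. In edgeR's test an unadjusted p under 0.05 was seen for *Tgfbi* in monocytes, for none in CCR2high macrophages and for *Ltbp1* in CCR2low macrophages. The same held for 739, 69 and 184 of all 11566 genes. *Tgfbi* was at 2296, 2128 and 2621 CPM in GFPpos and 4363, 3668 and 5060 CPM in GFPneg monocytes of mice 22, 24 and 26. These replicates did not overlap, with a log2 fold change of -0.89 (SE 0.31, adjusted p = 0.639). *Thbs1* was at 109.5, 122 and 1694 CPM in GFPpos monocytes, lower than GFPneg monocytes in 3 of 3 mice, as were *Vcan* and *F13a1*. *F13a1* was at 114, 74.2 and 438 CPM in GFPpos monocytes. *Fn1* was higher in GFPpos than in GFPneg macrophages in 4 of 4 mice in both classes, with GFPpos CCR2low cells at 282, 409, 166 and 967 CPM. Without mouse 26 too 0 of 9 were called in each of the 3 sorts by GFP. Over 27 tests of whether the GFP difference varied between populations the lowest p was 0.0104 and the lowest adjusted p was 1.

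Among the GFPpos populations 0 of 9 members were called between monocytes and CCR2high macrophages, where 0.0173% of all genes were, and 0 of 9 between monocytes and CCR2low macrophages, where 0.164% were. DESeq2 called 0 members in each, and 30 of 11037 and 66 of 10612 genes it tested. In edgeR's test an unadjusted p under 0.05 was seen for *Ltbp1* in the first, at 4.28, 3.41 and 37.9 CPM against at most 2.48 CPM, and for *Plaur* in the second. The same held for 673 and 766 of all 11566 genes. With mouse as a block *Thbs1* was called in the second, higher in monocytes by 2.35 on the log2 scale (adjusted p = 0.0296), where 0.527% of all genes were called.

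Around the 9 members, 8 lists of pathway genes held 102 other genes, of which 82 were tested. Against Ly6Chigh blood monocytes 29 (35.4%) were higher and 2 (2.44%) lower in GFPneg glioma monocytes, beside 11.1% and 2.68% of all genes. In CCR2high macrophages 27 (32.9%) were higher and 9 (11%) lower, beside 12.7% and 5.14%, and in CCR2low macrophages 29 (35.4%) were higher and 9 (11%) lower, beside 14.1% and 6.09%. Of the 82 genes 40 (48.8%, beside 10.8% of all genes) had at most 3 counts in every Ly6Chigh replicate. Such genes could pass the filter on low counts only through another population, and 16, 16 and 17 of the higher calls were among them. The median log2 fold change of the 82 genes, with genes at or under 3 counts set at their bound, was 1.74, 1.71 and 1.77, beside 0.09, 0.10 and 0.14 for all genes, and it is set in part by that filter. Without mouse 26 there were 20 higher and 1 lower in glioma monocytes, 23 and 9 in CCR2high and 25 and 10 in CCR2low macrophages, which kept 21, 30 and 32 of the calls. The shares of all genes above belong to the fit with mouse 26. Those of the fit without it are not given, so these counts cannot be set against them. Among the glioma populations, *F10*, *Anxa2*, *Cd44* and *Tgm2* were higher and *Mmp13* and *Mmp2* lower in GFPneg monocytes than in CCR2low macrophages. These were 6 of 82 (7.32%), beside 1.21% of all genes. *F10* was the one called against CCR2high macrophages (1.22%, beside 0.182% of all genes). Against CCR2low macrophages *F10* kept its call without any 1 mouse, while the 5 others lost theirs without mouse 22 (adjusted p 0.0681 to 0.558) and without mouse 24 (0.178 to 0.603), *Cd44* without mouse 23 (0.0526) and *Anxa2*, *Tgm2* and *Mmp13* without mouse 26 (0.131, 0.142 and 0.0848). Between sorts by GFP 0 were called. Between the blood populations 3 were higher in Ly6Chigh cells (*Mmp25*, *Mmp8*, *Tgm1*) and 3 in Ly6Clow cells (*Cd36*, *Srgn*, *Tgm2*), with a median of 0. These 6 are 7.32% of the 82 genes, near the 5.61% of all genes called (1.96% higher and 3.65% lower in Ly6Chigh cells). *Srgn* turned to the other direction under spike-in scaling, from -1.33 to 0.63 on the log2 scale (adjusted p = 0.573).

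In the plasminogen list *Serpine2*, which encodes a protease inhibitor that blocks urokinase and thrombin, was not detected in blood and was at 64.0, 104 and 244 CPM in GFPneg glioma monocytes, CCR2high and CCR2low macrophages, at least 47.2-, 76.6- and 179.6-fold higher than in Ly6Chigh blood. *Plat*, the tissue plasminogen activator, was at least 20.6-, 11.4- and 17.5-fold higher by its means, but each GFPneg population held a replicate at 0 and the monocytes spanned 0 to 69.7 CPM. Without mouse 26 the bounds were 5.18-, 6.77- and 10.4-fold. Its calls were lost without any 1 Ly6Chigh replicate and without mouse 22, 23 or, in the first 2 populations, 26 (adjusted p 0.0606 to 0.196). *Plgrkt*, a plasminogen receptor gene, rose by 1.45 (adjusted p = 0.0058), 1.38 and 1.22 on the log2 scale, and by 1.20, 1.10 and 0.90 without mouse 24 (adjusted p = 0.169, 0.151 and 0.234). *Anxa2*, another plasminogen binder at the cell surface, went the other way, with -1.74 (adjusted p = 0.00303) in CCR2high and -2.28 (adjusted p = 0.000187) in CCR2low macrophages, and it was not called in glioma monocytes (-0.66, adjusted p = 0.395).

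Transglutaminase 2 (*Tgm2*), which cross-links matrix proteins as factor XIII does, rose where *F13a1* was lower, from 71.6 CPM in Ly6Chigh blood to 2450 CPM in GFPneg glioma monocytes, a log2 fold change of 5.10 (SE 0.51, adjusted p = 7.85e-08), and by 3.88 and 3.43 in the macrophage classes. It was also higher in Ly6Clow than in Ly6Chigh blood, at 387 CPM. Tissue factor (*F3*) was at 0 in Ly6Chigh blood and at least 23.4-, 15.1- and 21.3-fold higher in the 3 GFPneg populations. It spanned 2.14 to 70.3 CPM in the monocytes and 0 to 66.8 CPM in CCR2low macrophages, and the bounds of these fell to 9.11-fold without mouse 26 and 12.0-fold without mouse 23. The *F3* calls were all lost without mouse 22 (adjusted p = 0.0995, 0.0902 and 0.0656) and those of the macrophages without mouse 23 (0.0606 and 0.0657). *F10*, the gene of coagulation factor X, rose by 1.37 in glioma monocytes (adjusted p = 0.0265) and fell by 1.62 in CCR2low macrophages (adjusted p = 0.00312), and it was higher in GFPneg monocytes than in either macrophage class, by 1.81 and 2.99 (adjusted p = 0.04 and 8.18e-05). The *F10* call against CCR2high macrophages was lost without any 1 mouse (adjusted p 0.061 to 0.703), that of glioma monocytes against blood without mouse 22, 24 or 26 (0.223, 0.0826 or 0.0619), and that of CCR2low macrophages against blood without mouse 23 (-1.33, adjusted p = 0.0655).

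In the TGF-beta list *Nrros*, whose product holds latent TGF-beta at the surface of myeloid cells, differed by -1.03 in CCR2high macrophages (adjusted p = 0.0045, and 0.053 without mouse 23) and by -1.28 in CCR2low macrophages (adjusted p = 0.000514). Its level there was 549 and 462 CPM, against at most 11.9 CPM in mean for the other genes named from that list, *Tgfb3*, *Lrrc32* and *Ltbp3*, which were at 0 in Ly6Chigh blood. That highest mean, *Tgfb3* in CCR2low macrophages, was 3.55 CPM without mouse 26. The hyaluronan receptor gene *Cd44* differed from Ly6Chigh blood by -1.41 and -1.94 on the log2 scale in the macrophage classes (adjusted p = 0.000592 and 1.26e-05), and the versican protease gene *Adamts1* was at 0 in blood and at least 24.2-, 14.8- and 27.5-fold higher in the 3 GFPneg populations. *Adamts1* was highest in mouse 26, at 85.8 CPM in monocytes where the lowest was 3.75, and without that mouse the bounds were 4.71-, 8.32- and 10.8-fold. Its calls passed without mouse 26 (adjusted p = 0.00655, 0.00134 and 0.000828) and were lost without mouse 23 or 24 (0.0566 to 0.101) and, in monocytes and CCR2high macrophages, without mouse 22 (0.063 and 0.0644). Of the thrombospondin list *Cd36*, a thrombospondin receptor gene, was called in blood alone, at 84.7 CPM in Ly6Chigh and 634 CPM in Ly6Clow cells (log2 fold change -2.91, SE 0.49, adjusted p = 0.000639).

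Of the fibronectin receptors, the syndecan gene *Sdc4* was at 365 CPM in GFPneg glioma monocytes against 0.701 CPM in Ly6Chigh blood, at least 269-fold higher. The integrin gene *Itga4* differed by -1.96 (adjusted p = 0.00777, but 0.0852 and 0.0587 without mouse 22 and 24), -2.67 and -2.65 in the 3 GFPneg populations, and *Itgb7* by -2.12 and -1.99 in the macrophage classes. *Mmp12*, *Mmp13* and *Mmp14*, genes of matrix-cleaving proteases, rose by 6.37, 6.79 and 6.66 in glioma monocytes (adjusted p = 0.000225, 7.93e-07 and 0.000112). In Ly6Chigh blood *Mmp12* and *Mmp13* were read in mouse 24 alone, at 1.25 and 0.836 CPM, and without that replicate their values were 10.3 and 10.2. *Mmp8*, the neutrophil collagenase, differed by -2.43 (adjusted p = 0.0477), -5.31 and -4.55, and the first was lost without any 1 mouse (adjusted p 0.059 to 0.305). The neutrophil marker list, which includes *Mmp8*, summed to 388 to 1486 CPM in Ly6Chigh blood and 84.3 to 1803 CPM in GFPneg glioma monocytes, and its part in the *Mmp8* values was not tested.

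Of the structural list, osteopontin (*Spp1*) rose by 9.01 in glioma monocytes (adjusted p = 1.01e-06), from 1.71 to 780.2 CPM. The monocytes spanned 156 to 1826 CPM with mouse 26 highest, and without it their mean was 257 CPM and the log2 fold change 7.42 (adjusted p = 2.62e-06). *Sparc*, a collagen-binding glycoprotein also known from microglia, was at 0 in blood and at 449, 571 and 1166 CPM in GFPneg monocytes, CCR2high and CCR2low macrophages, at least 331-, 421- and 860-fold higher. Microglia markers summed to 1769 to 9482 CPM in the brain replicates and 145 to 285 CPM in blood, with 8 of 8 genes detected in every brain population, and their part in the *Sparc* levels was not tested. The gate on high CD45 was set to leave microglia out, and these markers were read in every brain replicate. *Srgn*, the proteoglycan of secretory granules, rose by 2.04, 1.17 and 1.17 (adjusted p = 6.14e-05, 0.00703 and 0.00631), and in the macrophage classes by 0.97 and 0.87 without mouse 24 (adjusted p = 0.0514 and 0.0725).

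**Figure D5:**
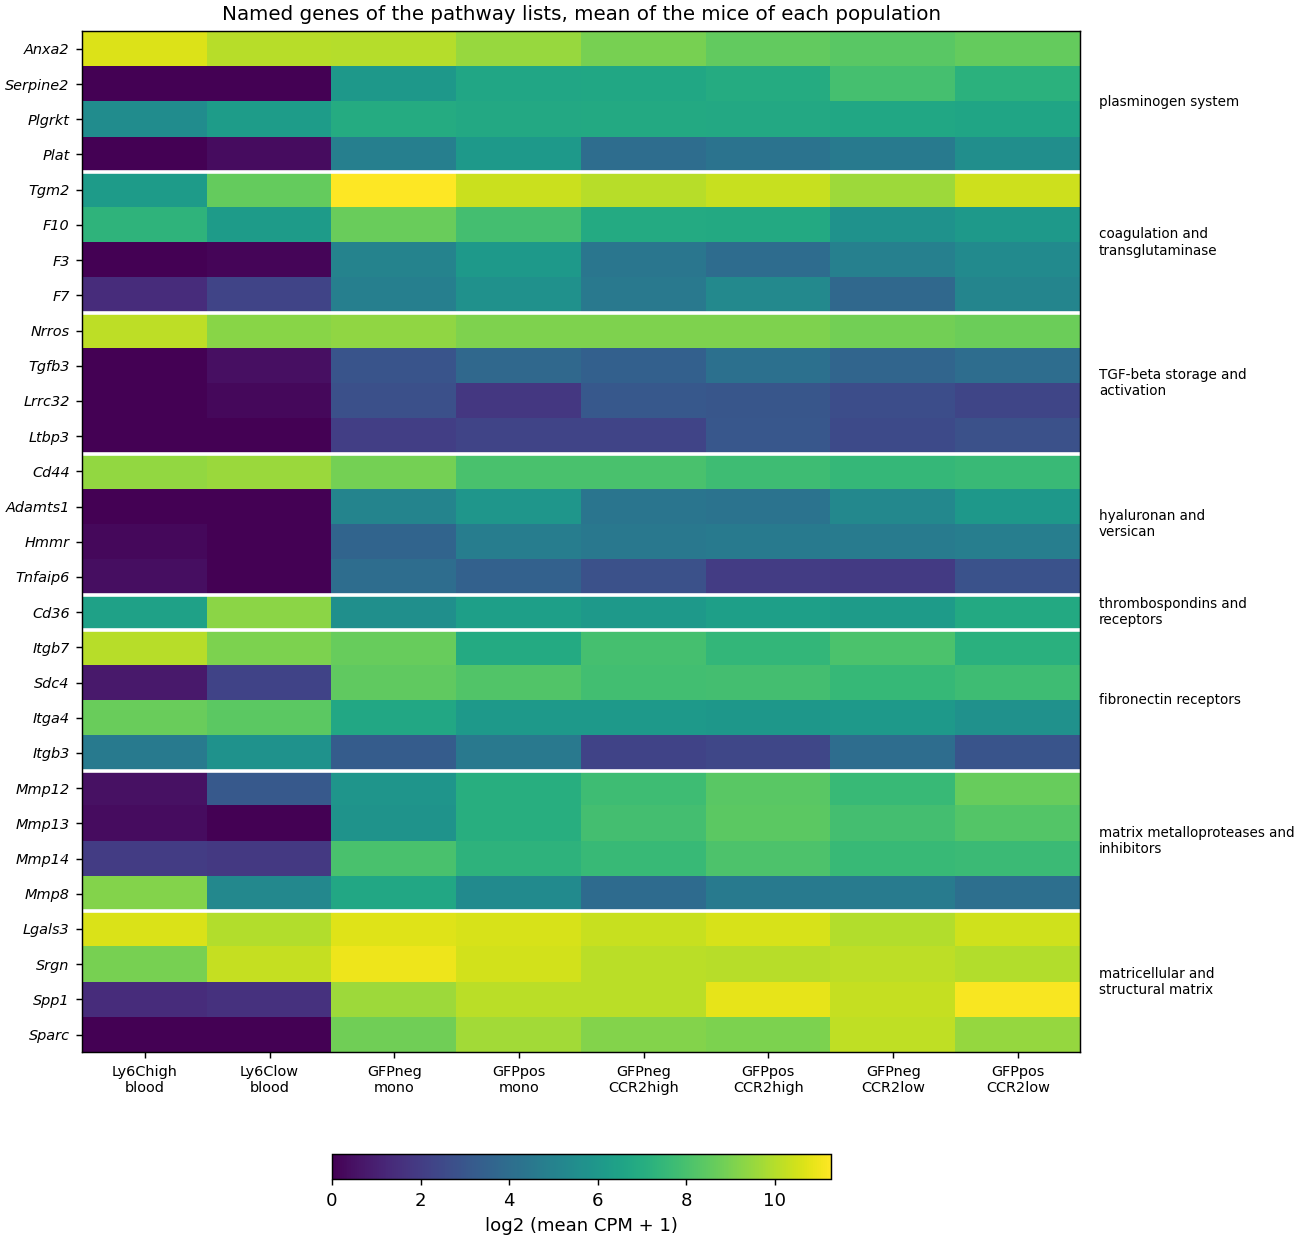
Mean level of the named pathway genes, as the log2 of mean CPM + 1 by color, in the 8 populations, grouped by list. *Sparc*, *Serpine2*, *Adamts1* and *Ltbp3* were at 0 in both blood populations and present in every brain population, while *Cd44*, *Itga4* and *Itgb7* were highest in blood.

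The genes whose log2 CPM was most like that of a member over the 28 replicates, with Pearson r as a description, were *Vim* (0.89), *Sgms2* (0.81) and *Fbxl5* (0.80) for *Vcan*, and *F13a1* (0.90), *Lrp1* (0.85) and *Xdh* (0.85) for *Fn1*. For *F13a1* they were *Fn1* (0.90), *Rab31* (0.90) and *Gda* (0.89). *Tgfbi* went with *Tcirg1* (0.93), *Slc31a1* (0.92) and *Fcgr1* (0.92), *Plau* with *Npl* (0.90), *Prkar1b* (0.89) and *Rai14* (0.88), and *Plaur* with *Rnh1* (0.78), *AI607873* (0.76) and *Ptafr* (0.74). *Thbs1* went with *Cxcl3* (0.88), *Xist* (0.81) and *Fat1* (0.80), of which *Xist* marked mouse 26. *Prg4* went with *Cyp2s1* (0.76), *Ltbp1* (0.71) and *Gm15708* (0.71), and *Ltbp1* with *Gm26510* (0.77), *Lsm5* (0.74) and *Suds3* (0.73), although over brain replicates alone *Ltbp1* and *Prg4* had an r of 0.40. The replicates share mice and libraries differ in depth.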

How the data were processed

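RNA (SMARTer and Nextera XT libraries with ERCC spike-ins) had been sequenced from the sorted cells, and the authors aligned reads with STAR to the mouse genome (GRCm38) and deposited raw counts per gene from HTSeq, whose strand setting is not given in the sources used here. Per the labels, the authors' notes also name Picard 1.8.4, R 3.2.3 and DESeq2. Reads from genes that overlap the members (*Tpr* for *Prg4*, *Apol7d* for *Fn1*) cannot be told apart without strand. The no-feature and ambiguous reads (6.28 to 17.4% and 1.58 to 1.9% of reads) were left out. Of 30 libraries, 1 failed the quality rule and 2 of GFPpos glioma monocytes of mouse 22 were summed, which left 28 replicates.

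The deposited counts were analysed in R 4.3.3 with edgeR 4.0.16 (TMM scaling, filterByExpr, robust quasi-likelihood fit over all 8 populations, 11566 genes tested, Benjamini-Hochberg adjustment, call at 0.05). CPM are counts over the TMM-scaled library size. The fit was also run on simulated counts drawn without a mouse effect, which cannot vouch for p-values of replicates that share mice. Same-numbered samples came from the same animal, so blocked values are printed where a call changed. Deviations of samples of the same mouse correlated with a median of 0.136 (86 pairs, 47 over 0.1), those of different mice with -0.03 (256 pairs, 20 over 0.1). Alternatives were DESeq2 1.42.0, other scalings, filters and samples, and 2 of them, the brain populations alone and whole mice left out, were chosen after seeing the data. Pathway genes were named, up to 4 per list by mean level, among those called in any of 13 comparisons, and 3 genes most like each member by Pearson r. Members, lists and tests were chosen with earlier results of these data known. P-values without the block treat the 28 replicates as independent, although they come from 4 mice. Those with the block measure the spread that is left once differences between mice are taken out. Both hold for these mice only.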

Additional observations from a re-analysis of the deposited data

Results flagged for a closer look

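In the 36 combinations of a member and a macrophage population with 4 mice, 10 had 1 mouse far from the others (by Dixon's 95% critical value of gap over range). Chance passes that limit in about 5% of groups only if values are normally distributed and groups independent. The 36 groups share the same 4 mice. In *Ltbp1* of GFPpos CCR2high and *Prg4* of GFPneg CCR2low macrophages, both flagged, 3 of 4 replicates had at most 3 counts. The 10 flags therefore cannot be set against that share, and they serve as a description. Of the 10 flagged values, 7 were the highest value in mouse 26. *Thbs1* was at 955 and 1131 CPM in its GFPneg and GFPpos CCR2high macrophages and at 613 and 476 CPM in its CCR2low macrophages, and all 4 values were flagged. *F13a1* was at 645 CPM and *Vcan* at 8.62 CPM in its GFPpos CCR2high macrophages, and *Prg4* at 10.46 CPM in its GFPpos CCR2low macrophages. The others were *Ltbp1* at 2.48 CPM in GFPpos CCR2high and *Prg4* at 9.91 CPM in GFPneg CCR2low macrophages of mouse 22, and *Plau* at 14.8 CPM in GFPneg CCR2low macrophages of mouse 24.

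The library of Ly6Clow monocytes of mouse 23 that failed the quality rule, and enters no comparison, held 6 members above the limit that a count of 0 allows, *Fn1* at 499, *Plaur* at 332, *F13a1* at 178, *Tgfbi* at 165, *Thbs1* at 56.8 and *Prg4* at 5.5 CPM of that library's own gene reads.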

How the results depend on the processing

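None of the 9 calls of members reversed under the alternatives run, and of the calls of other pathway list genes 1 did, *Srgn* in blood with spike-in scaling (-1.33 to 0.63). Between the blood populations 1 member was called, and 0 with spike-in scaling or with the fit kept to the populations compared, 2 with DESeq2 or with both libraries of mouse 23 summed, 3 with the replicate block and 0 to 2 with 1 replicate or mouse left out. Over all 11566 genes the blood calls were 649, and 36 with spike-in scaling, 922 with the block and 1372 of 11899 genes with DESeq2. *Tgfbi* was kept under 15 of 18 alternatives (adjusted p 0.000253 to 0.426). Against Ly6Chigh blood monocytes the 7 calls became 1 with spike-in scaling and 2 to 9 with 1 replicate or mouse left out. Spike-in scaling also cut the calls over all genes. They went from 1596, 2060 and 2340 to 398, 523 and 591 in glioma monocytes, CCR2high and CCR2low macrophages. The *Thbs1* call was lost under 10 of 17 alternatives (adjusted p 6.94e-05 to 0.254), that of *F13a1* in CCR2low macrophages under 0 of 18. Among the GFPneg glioma populations the 1 call, *Plaur*, was lost under 8 of 19 (adjusted p 0.00369 to 1), and the count was 0 with spike-in scaling, 2 with the compared populations only (*Vcan* added) or the brain populations only (*Tgfbi* added), 7 with the replicate block and 0 to 1 with 1 left out. Over all genes, calls of GFPneg monocytes against CCR2high and CCR2low macrophages went from 21 and 140 to 0 and 1 with spike-in scaling. With the block they were 96 and 284. Among the GFPpos populations 0 became 1 with the replicate block, and between GFP sorts the count was 0 throughout. Counts over all genes for fits with samples left out are not given. Pathway list genes called, without the 9 members, went from 6 to between 0 and 15 in blood, from 105 to between 24 and 137 against blood, from 7 to between 0 and 16 among GFPneg and from 1 to between 0 and 5 among GFPpos populations. Under spike-in scaling the middle log2 value over all genes was 1.69 in blood and -1.37 for GFPpos against GFPneg monocytes, and 32 of 72 population means moved by over 1 SD, so directions are relative to the bulk of genes. The causes were not tested. Against populations with at most 3 counts per replicate bounds are given in place of folds.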
